A study of Mus musculus with 6 samples.

Results

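The 8 genes described here encode the mesenchymal transcription factors Twist1, Twist2, Prrx1, Prrx2, Snai1, Snai2, Zeb1 and Zeb2. They were chosen by symbol from the 38561 Ensembl genes of the count files, all 8 were found there, and all 8 were among the 19024 genes that passed the filter on low counts. RNA sequencing had been done on 6 mouse samples in 3 groups of 2 libraries. NG2 cells were perivascular cells (pericytes) taken from normal muscle by sorting with an antibody to the NG2 proteoglycan. Osteosarcomas were primary tumours of the right tibia (replicate 1) and the lumbar spine (replicate 2), and soft tissue sarcomas were both primary subcutaneous tumours. All 3 groups, the NG2 cells included, came from NG2-Cre;p53flox/flox mice of mixed background, so none of the groups is wild type. In these mice the promoter of Cspg4, which encodes NG2, drives Cre, and Cre removes the floxed part of Trp53, the p53 gene. The age and number of animals were not given in the sources used here.

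The factors belong to 4 gene pairs. Twist1 and Twist2 are basic helix-loop-helix (bHLH) proteins that bind E-boxes, sites of the form CANNTG, mostly as dimers with the E-proteins Tcf3, Tcf4 and Tcf12. Snai1 and Snai2 (zinc fingers) and Zeb1 and Zeb2 (zinc fingers with a homeodomain) bind the E-box CACCTG and are best known as repressors of Cdh1, the gene of the epithelial adhesion protein E-cadherin. Prrx1 and Prrx2 are paired-type homeodomain factors of limb and craniofacial mesenchyme. Twist1 and Prrx1 mark skeletal and fibroblast progenitors, and Zeb1 and Zeb2 are also made by white blood cells and endothelium.

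Because the 2 Twist genes gave the most unequal pattern, their coding sequences are shown where they are most alike. In the window of 180 bases below, 159 bases were identical and 21 differed, and the differing bases are in capitals. The Twist1 stretch is chr12:33958284-33958463 and the Twist2 stretch chr1:91801795-91801974, both in coding exons on the plus strand of GRCm38 (GENCODE M21 transcripts).
Twist1: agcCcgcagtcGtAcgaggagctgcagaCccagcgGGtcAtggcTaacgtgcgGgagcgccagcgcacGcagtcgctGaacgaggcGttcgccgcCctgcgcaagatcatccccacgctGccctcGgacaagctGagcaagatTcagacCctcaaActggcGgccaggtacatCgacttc
Twist2: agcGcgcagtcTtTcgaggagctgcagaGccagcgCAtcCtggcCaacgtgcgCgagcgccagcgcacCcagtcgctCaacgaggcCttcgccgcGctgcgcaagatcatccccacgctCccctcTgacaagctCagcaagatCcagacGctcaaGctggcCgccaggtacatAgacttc
The whole coding sequences of 618 and 480 bases matched at 84.2% of aligned positions, and their longest identical run was 23 bases. For Prrx1 and Prrx2 the longest run was 19 bases, for Snai1 and Snai2 22, and for Zeb1 and Zeb2 23. The counts of the pair were nonetheless well separated in osteosarcoma, whose libraries held 2204 counts of Twist1 and 7 of Twist2, which was 0.317% of both.

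The promoters of both Twist genes and of Snai1 are shown as those of 3 of the 4 factors that rose in soft tissue sarcoma. RefSeq start sites on GRCm38.p6 were matched for 6 of the 8 factors (Twist1, Twist2, Prrx1, Prrx2, Snai1 and Zeb2). Each sequence below is the 250 bases before the start, on the plus strand: chr12:33957421-33957670 for Twist1, chr1:91801211-91801460 for Twist2 and chr2:167537945-167538194 for Snai1. Capitals mark CANNTG and CCAAT, the latter searched on both strands, so that ATTGG is also in capitals.
Twist1: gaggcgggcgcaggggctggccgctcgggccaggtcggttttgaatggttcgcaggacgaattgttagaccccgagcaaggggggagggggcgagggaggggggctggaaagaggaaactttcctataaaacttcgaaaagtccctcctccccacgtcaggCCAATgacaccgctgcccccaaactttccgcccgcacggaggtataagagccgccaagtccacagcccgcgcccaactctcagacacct
Twist2: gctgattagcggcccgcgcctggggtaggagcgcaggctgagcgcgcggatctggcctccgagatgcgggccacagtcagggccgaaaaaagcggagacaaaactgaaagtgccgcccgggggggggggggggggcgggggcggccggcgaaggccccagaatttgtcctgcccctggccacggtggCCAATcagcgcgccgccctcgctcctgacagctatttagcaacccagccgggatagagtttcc
Snai1: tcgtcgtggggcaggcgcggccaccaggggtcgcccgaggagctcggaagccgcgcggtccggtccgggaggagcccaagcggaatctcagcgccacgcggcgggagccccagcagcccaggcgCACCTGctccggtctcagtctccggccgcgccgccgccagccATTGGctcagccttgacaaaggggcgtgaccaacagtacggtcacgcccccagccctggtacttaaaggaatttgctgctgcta
Snai1 held CACCTG, the E-box of the Snai and Zeb proteins themselves, beginning 126 bases before its start. CACCTG or its reverse CAGGTG was in 17.2% of all 32851 windows of this length, and any CANNTG, of which CACCTG is one form, was in 66.2%. None of the windows of Twist1, Twist2, Prrx1, Prrx2 and Zeb2 held CANNTG. All 3 windows shown held 1 CCAAT on either strand, as did 33.8% of all windows. Unlike the coding sequences, the promoter windows of Twist1 and Twist2 shared no identical run longer than 9 bases.

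The libraries held 27693585 to 58126832 counts on genes. The names of the deposited tables carry a number, taken here as a sequencing lane. It was shared within each group and differed between groups, so it cannot be told apart from group. The NG2 cells had counts of all 7 pericyte and mural markers examined, with Cspg4 at 38.6 and 30.6 normalised CPM (counts scaled to library size). Cspg4 had 118 and 37.7 CPM in the osteosarcomas and 188.5 and 88.65 CPM in the soft tissue sarcomas, and neither difference from NG2 cells passed. Of the 7 markers, 1 rose and 2 fell in osteosarcoma, and 0 rose and 2 fell in soft tissue sarcoma. Of all tested genes, 10.5% rose and 11% fell in the former and 9.89% and 9.4% in the latter. The NG2 cells also held B cell markers at a summed 1619 to 4833 CPM over 6 genes. The sum was 2.75 to 3.59 CPM in the osteosarcomas, where Ms4a1 had 0 counts, and 9.50 to 14.1 CPM in the soft tissue sarcomas. All 6 osteoblast markers rose in osteosarcoma against NG2 cells, beside 10.5% of all tested genes. In soft tissue sarcoma 0 of the 6 rose and 1, Alpl, fell, beside 9.89% and 9.4% of all tested genes.

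The first question was which factors differed between the tumours and the NG2 cells. In osteosarcoma 4 of the 8 rose (Twist1, Prrx1, Snai1 and Snai2), none fell and 4 did not pass the test, with a median log2 fold change of 2.62 over the 8, beside 0.04 over all tested genes. A call was an edgeR quasi-likelihood test with a Benjamini-Hochberg adjusted p under 0.05. Of all 19024 tested genes, 10.5% rose and 11% fell in that comparison. In soft tissue sarcoma 4 rose (Twist1, Twist2, Prrx1 and Snai1), none fell and 4 did not pass, with a median of 3.79 over the 8 and 0.00 over all genes. There 9.89% of all tested genes rose and 9.4% fell. Twist2 entered the test through the soft tissue sarcoma libraries alone and could only be higher there. Its rise, and its place in the median of 3.79, are thus no support for a direction. Between the tumour types 0 factors passed, where 0.142% of all genes did (0.0841% higher and 0.0578% lower in soft tissue sarcoma). DESeq2 called 35.5%, 34.4% and 10.6% of all genes in the 3 comparisons, of which those higher in the first-named group were 17.2%, 16.8% and 6.3%. It called 6, 6 and 1 of the factors, with Zeb1 in osteosarcoma the only one lower. Without either soft tissue sarcoma library, edgeR called 0 genes of any kind between soft tissue sarcoma and NG2 cells, so the loss of the 4 calls in those fits is not particular to the factors. Their log2 fold changes there were 5.81 and 5.96 for Twist1, 10.3 and 10.63 for Twist2, 5.51 and 6.43 for Prrx1 and 1.74 and 2.23 for Snai1, in the order of the library left out. Without NG2 cell replicate 1 or either soft tissue sarcoma library 2 factors (Twist1 and Prrx1) were called in osteosarcoma. Counted by libraries that did not overlap, 7 factors were higher and 1 lower in osteosarcoma than in NG2 cells, as were 32.7% and 32.4% of all genes. In soft tissue sarcoma 6 were higher and 0 lower, beside 35.8% and 34.6% of all genes. Soft tissue sarcoma lay above osteosarcoma for 3 factors (Twist2, Snai1 and Zeb1) and below it for Snai2 and Zeb2, beside 25.8% and 24.5% of all genes. The comparisons with NG2 cells share the NG2 cell libraries.

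**Figure D1:**
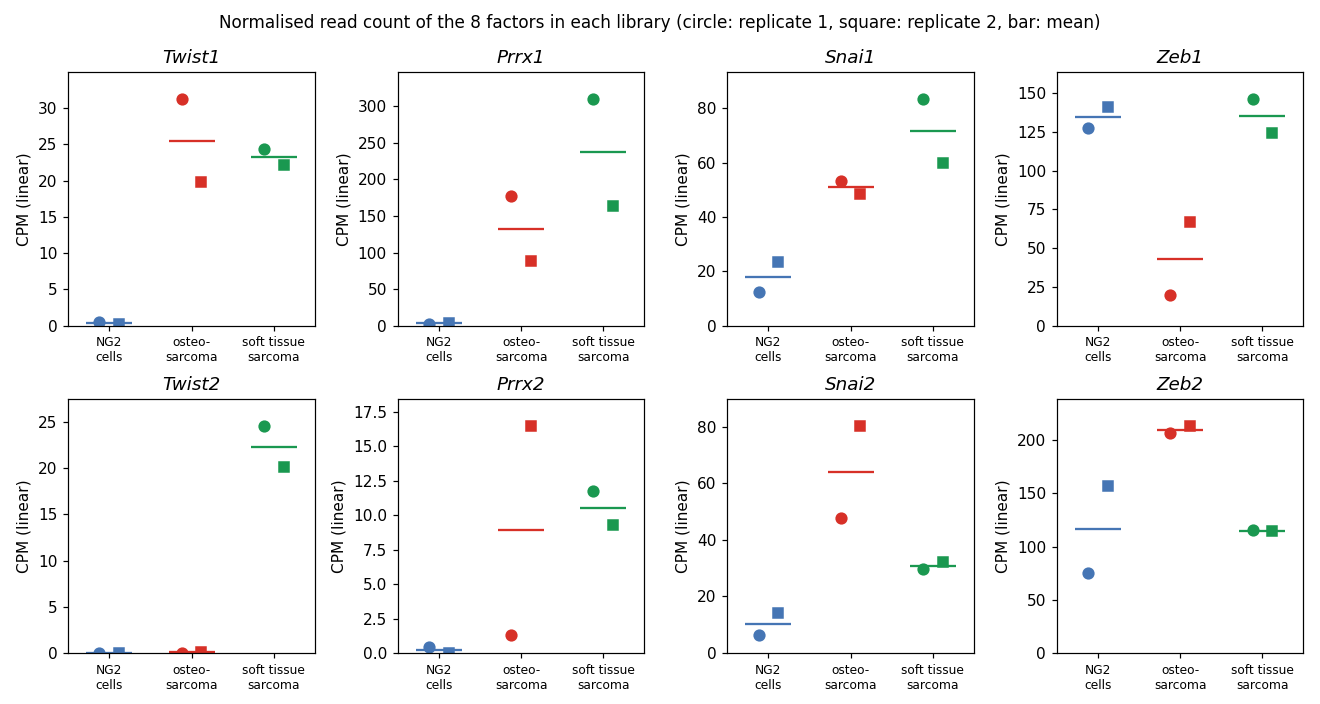
Normalised read count (CPM, linear axes that start at 0) of each factor in the 6 libraries; circles are replicate 1, squares replicate 2, and bars the mean of the 2 libraries of a group. Twist1 and Prrx1 are near 0 in NG2 cells and high in all 4 tumours, Twist2 is high only in the soft tissue sarcomas, at 24.5 and 20.1 CPM, and Zeb1 is lowest in the osteosarcomas.

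Twist1 (ENSMUSG00000035799; chromosome 12, 33957671 to 33959829, GRCm38), which in development holds cranial and limb mesenchyme in an undifferentiated state, had 0.499 and 0.298 CPM in the NG2 cells, from 18 and 13 counts. It had 31.2 and 19.8 CPM in the osteosarcomas and 24.4 and 22.2 CPM in the soft tissue sarcomas. Both NG2 cell libraries lay far below all 4 tumours, and the tumour types overlapped. Twist1 rose 63.9-fold in osteosarcoma (edgeR adjusted p = 0.00521; log2 fold change 5.998 with an SE of 0.54, as after each ± sign that follows a log2 fold change; n = 2 libraries in each group) and 58.4-fold in soft tissue sarcoma (5.87 ± 0.53; adjusted p = 0.00806). The difference between the tumour types was -0.13 ± 0.42 on the log2 scale (adjusted p = 0.925). In bulk tumours, fewer cells of a type and less RNA per cell cannot be told apart. Of 7 fibroblast markers, 2 rose in each tumour type, beside 10.5% and 9.89% of all tested genes. The summed CPM of the 7 went from 361 to 756 in NG2 cells to 21890 to 34660 in osteosarcoma and 5321 to 6641 in soft tissue sarcoma. Col1a1 made up most of the sum in osteosarcoma, at 32200 and 19600 CPM, so the sum there mainly followed that gene. The fitted log2 fold change in osteosarcoma was positive for 5 of the 7 and negative for 2 (Dpt and Pi16). Soft tissue sarcoma was fitted above osteosarcoma for 5 of the 7 and below it for 2 (Pdgfra and Col1a1), and none of these differences passed. The part of fibroblasts in the values of the factors was not tested.

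Twist2 (ENSMUSG00000007805; chromosome 1, 91801461 to 91848028), known as Dermo1 from its place in the dermis, was the factor with the widest gap between libraries. It had 1 and 0 counts in NG2 cells and 3 and 4 counts in osteosarcoma, which are 0.0277 and 0 CPM and 0.0569 and 0.142 CPM. It had 1460 and 597 counts in soft tissue sarcoma, or 24.5 and 20.1 CPM. The soft tissue sarcomas thus held about as many CPM of Twist2 as of Twist1, while the osteosarcomas had Twist1 with hardly a read of Twist2. Its summed counts per library size were 1837 times higher in soft tissue sarcoma than in NG2 cells (95% exact interval 329 to 72580, counting error only), and it rose in the test (fitted log2 fold change 10.47 ± 1.10; adjusted p = 0.00863). Against osteosarcoma the summed counts were 266 times higher (exact interval 129 to 663), but the fitted difference of 7.85 ± 0.94 did not pass the edgeR threshold (p = 0.000152, adjusted p = 0.0583). Over the alternatives that adjusted p lay between 4.12e-21 and 0.312, and it passed with DESeq2, with no filter on low counts and without osteosarcoma replicate 2. Osteosarcoma and NG2 cells differed by 2.62 ± 1.13 on the fitted log2 scale (adjusted p = 0.142), and their summed counts by 6.90 times, with an interval from 0.886 to 311. Twist2 passed the filter on low counts through the soft tissue sarcoma libraries alone. It could thus only be higher in that group, and its rise in the test is no support for a direction. Its exons share 1477 bases with an antisense gene of the GENCODE M21 annotation, Gm29100, which has no row in the count files, and the strand setting of the counting was not stated, so reads of the 2 cannot be told apart.

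Prrx1 (ENSMUSG00000026586; chromosome 1, 163245119 to 163313710) had 2.99 and 4.29 CPM in the NG2 cells, 178 and 88.0 CPM in the osteosarcomas and 310 and 164 CPM in the soft tissue sarcomas. All 4 tumours were above both NG2 cell libraries, and the tumour types overlapped. Prrx1 rose 36.5-fold in osteosarcoma (adjusted p = 0.00673, log2 fold change 5.19 ± 0.57) and 65.0-fold in soft tissue sarcoma (6.02 ± 0.59; adjusted p = 0.00846). Between the tumour types its difference was 0.83 ± 0.48 (adjusted p = 0.458). The long noncoding RNA Gm26523, which lies inside the Prrx1 gene on the same strand and shares no exon base with it, had 8 and 4 counts in the NG2 cells, 278 and 95 in the osteosarcomas and 827 and 242 in the soft tissue sarcomas, and was 2.14% to 7.41% of the Prrx1 count in each library.

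Prrx2 (ENSMUSG00000039476; chromosome 2, 30834972 to 30881251), which acts beside Prrx1 in limb and jaw mesenchyme, was the least even factor. It had 16 and 0 counts in NG2 cells (0.443 and 0 CPM), where 0 counts allow up to 0.0688 CPM. The osteosarcomas differed from each other 12.2-fold, at 1.35 CPM in the tibia and 16.5 CPM in the spine, and the soft tissue sarcomas had 11.8 and 9.27 CPM. All tumour libraries were above both NG2 cell libraries, yet neither difference passed (log2 fold change 5.34 ± 1.88, adjusted p = 0.0906 in osteosarcoma; 5.58 ± 1.90, adjusted p = 0.0874 in soft tissue sarcoma). DESeq2 called Prrx2 in both, and the fit of the 2 groups alone and the fit without osteosarcoma replicate 1 called it in soft tissue sarcoma. Over the alternatives the fitted log2 difference of Prrx2 was 2.63 to 11.56 in osteosarcoma and 4.58 to 11.82 in soft tissue sarcoma, and the highest of each came without NG2 cell replicate 1, which leaves 0 counts in the NG2 cells. The osteosarcoma with more Prrx2, replicate 2, also had more osteoclast marker RNA (14680 against 718 CPM over 5 genes) and more muscle fibre marker RNA (947 against 12.2 CPM over 6 genes). Its osteoblast marker sum was higher as well (19080 against 2824 CPM over 6 genes), mostly through Ibsp. Its fibroblast marker sum was lower (21890 against 34660 CPM over 7 genes). The part of all these cells in the gap was not tested.

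Snai1 (ENSMUSG00000042821; chromosome 2, 167538195 to 167542814) had 12.6 and 23.6 CPM in the NG2 cells, 53.3 and 48.6 CPM in the osteosarcomas and 83.4 and 59.8 CPM in the soft tissue sarcomas. The 3 groups did not overlap, with NG2 cells lowest and soft tissue sarcoma highest. Snai1 rose 2.82-fold in osteosarcoma (adjusted p = 0.0446, log2 fold change 1.495 ± 0.39) and 3.96-fold in soft tissue sarcoma (1.99 ± 0.40; adjusted p = 0.0251), and the tumour types differed by 0.49 ± 0.38 (adjusted p = 0.594). The call in osteosarcoma was lost under 8 of 12 alternatives, with adjusted p from 0.00667 to 0.133 over the 12 and a log2 fold change that stayed between 1.11 and 2.03. The call in soft tissue sarcoma was lost under 5 of 12 (adjusted p 0.000162 to 0.145, log2 fold change 1.61 to 2.53).

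Snai2 (ENSMUSG00000022676; chromosome 16, 14705852 to 14709385), or Slug, a factor of neural crest and connective tissue cells, was highest in osteosarcoma. It had 6.48 and 14.2 CPM in the NG2 cells, 47.9 and 80.1 CPM in the osteosarcomas and 29.6 and 32.1 CPM in the soft tissue sarcomas, and the groups did not overlap. Snai2 rose 6.17-fold in osteosarcoma (adjusted p = 0.0200, log2 fold change 2.63 ± 0.49). Its log2 fold change in soft tissue sarcoma, 1.57 ± 0.48, did not pass (adjusted p = 0.0667), and neither did the difference between the tumour types, -1.05 ± 0.47 (adjusted p = 0.353). The call in osteosarcoma was lost without NG2 cell replicate 1 and without either soft tissue sarcoma library (adjusted p at most 0.0653 over the alternatives), while the log2 fold change was 2.16, 2.64 and 2.64 in these fits, and DESeq2 called Snai2 in soft tissue sarcoma.

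Zeb1 (ENSMUSG00000024238; chromosome 18, 5591860 to 5775467), the repressor of epithelial genes that microRNAs of the miR-200 family hold down in epithelium, was already abundant in NG2 cells, at 128 and 141 CPM. It had 19.9 and 66.6 CPM in the osteosarcomas and 146 and 124 CPM in the soft tissue sarcomas. Both osteosarcomas were below the other 4 libraries, and the soft tissue sarcomas overlapped the NG2 cells. The log2 fold change against NG2 cells was -1.64 ± 0.56 in osteosarcoma (adjusted p = 0.0832), 0.01 ± 0.54 in soft tissue sarcoma (adjusted p = 0.995), and soft tissue sarcoma exceeded osteosarcoma by 1.64 ± 0.56 (adjusted p = 0.240). Without osteosarcoma replicate 2, the library with more Zeb1, both differences of osteosarcoma passed, at log2 fold changes of -2.74 against NG2 cells (adjusted p = 0.0106, between 0.0106 and 0.22 over the alternatives) and 2.77 for soft tissue sarcoma over osteosarcoma (adjusted p = 0.0317, between 0.0317 and 0.707). DESeq2 called the difference from NG2 cells (adjusted p = 0.0212) but not that between the tumour types.

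Zeb2 (ENSMUSG00000026872; chromosome 2, 44983632 to 45117395), also a factor of macrophages and neural crest cells, had 75.3 and 157 CPM in the NG2 cells, 207 and 213 CPM in the osteosarcomas and 115 CPM in each soft tissue sarcoma library. It was the reverse of Zeb1 in that both osteosarcomas were above the other 4 libraries. No difference of Zeb2 passed: 0.85 ± 0.38 in osteosarcoma against NG2 cells (adjusted p = 0.153), -0.02 ± 0.38 in soft tissue sarcoma against NG2 cells (adjusted p = 0.982) and -0.87 ± 0.38 between the tumour types (adjusted p = 0.344). The NG2 cell libraries differed 2.08-fold from each other and lay on both sides of the soft tissue sarcomas. The antisense gene Zeb2os shares 653 exon bases with Zeb2 and had 24 to 173 counts per library, at most 1.91% of those of Zeb2. Gm10125 shares 198 exon bases with Zeb1 and reached 5.89% of its count. Markers of cells that can also make Zeb RNA differed between the groups. T cell markers summed to 413 to 581 CPM over 6 genes in NG2 cells and at most 25.5 CPM in a tumour. Endothelial markers summed to 727 to 1245 CPM in the NG2 cells and 108 to 322 CPM in tumours. The sum of macrophage markers was highest in soft tissue sarcoma (2463 to 3082 CPM over 7 genes, 1288 to 1632 in osteosarcoma and 578 to 1535 in NG2 cells). Of the 7, 3 rose and 1 (Cd14) fell in osteosarcoma, beside 10.5% and 11% of all tested genes. In soft tissue sarcoma 3 rose and 0 fell, beside 9.89% and 9.4%. Cd68 alone had 978.5 of the 1632 CPM in osteosarcoma replicate 2. The part of T cells, endothelium and macrophages in the Zeb values was not tested.

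**Figure D2:**
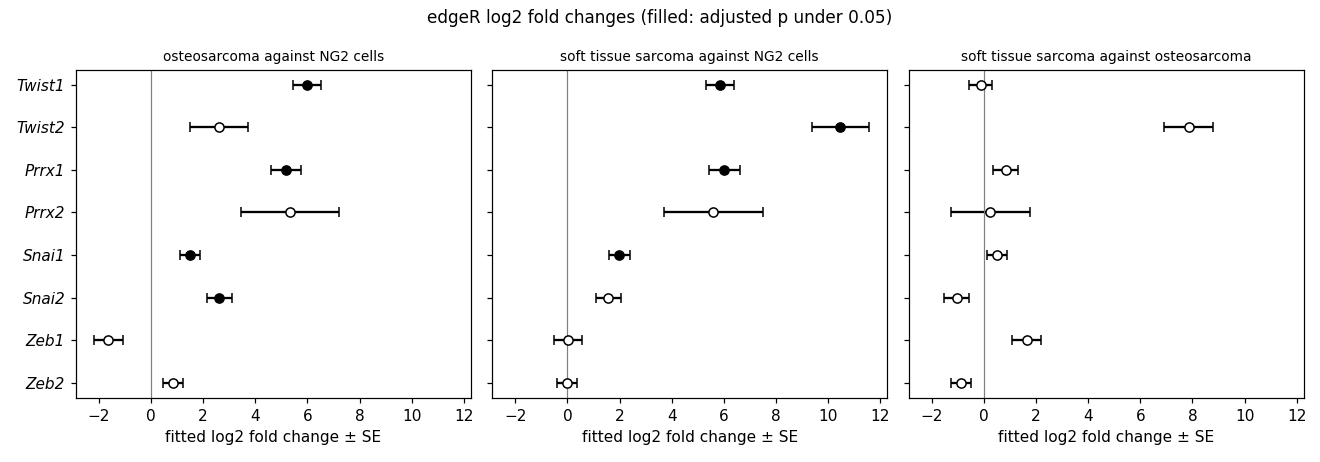
Fitted edgeR log2 fold change (points) with its standard error (bars) for each factor in the 3 comparisons, on 1 shared axis; filled points have an adjusted p under 0.05. Each comparison with NG2 cells has 4 filled points, and the comparison of the tumour types has none, with Twist2 at 7.85.

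To compare levels between genes, CPM were divided by the length of the union of a gene's exons. In NG2 cells the order of the mean CPM per kilobase was Zeb1 (13.1 ± 0.942, SD, n = 2), Snai1 (11.2 ± 4.79), Zeb2 (5.82 ± 2.89), Snai2 (5.13 ± 2.71), Prrx1 (0.329 ± 0.0827), Twist1 (0.245 ± 0.0872), Prrx2 (0.113 ± 0.16) and Twist2 (0.00436 ± 0.00617). The first 4 were within the spread of their neighbours, and a wide step separated them from the Prrx and Twist genes. In osteosarcoma Snai2 (31.6 ± 11.3) and Snai1 (31.4 ± 2.03) led, followed by Twist1 (15.7 ± 4.98), Prrx1 (12.01 ± 5.73), Zeb2 (10.5 ± 0.21), Prrx2 (4.54 ± 5.45), Zeb1 (4.22 ± 3.22) and Twist2 (0.0314 ± 0.019). Of those neighbours, only Snai1 over Twist1 and Zeb1 over Twist2 stood apart by more than their combined SD, along with Zeb2 over Prrx2. In soft tissue sarcoma Snai1 (44.2 ± 10.3) led Prrx1 (21.4 ± 9.32) by more than their combined SD, and Snai2 (15.3 ± 0.868), Twist1 (14.3 ± 0.973) and Zeb1 (13.2 ± 1.49) lay close together above Twist2 (7.03 ± 0.976), Zeb2 (5.76 ± 0.0176) and Prrx2 (5.37 ± 0.912). With the longest coding transcript as the length, Zeb1 passed Snai2 and Twist1 in soft tissue sarcoma to 23.3 CPM per kilobase and Zeb2 came next after Snai2 and Snai1 in osteosarcoma, at 23.0. In NG2 cells Zeb2 then came before Snai1. In soft tissue sarcoma Snai1 (44.2 ± 10.3) and Prrx1 (36.3 ± 15.8) then lay within their combined SD.

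**Figure D3:**
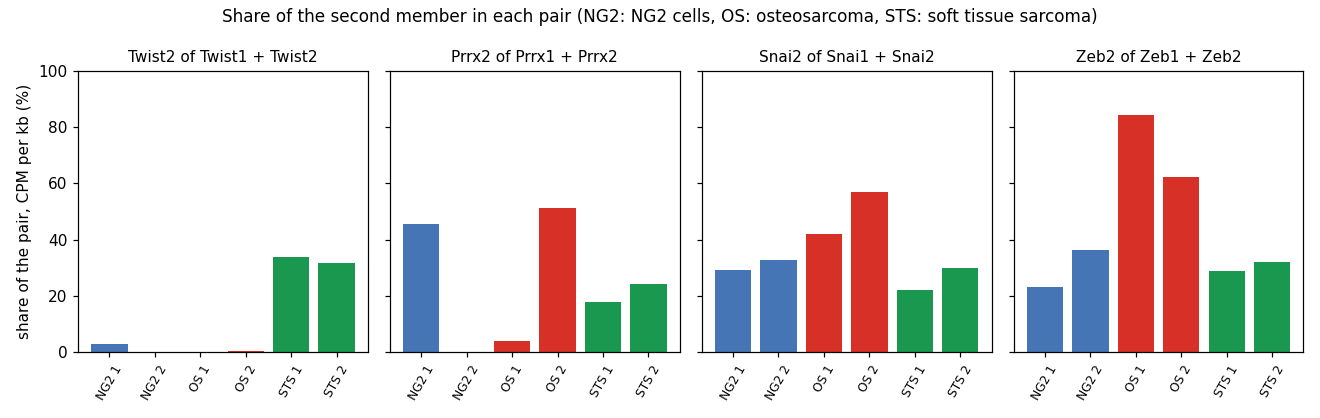
Share of the second gene in each pair, from CPM per kilobase of exon union, in percent of the pair's sum, for the 6 libraries (bars from 0). Twist2 is 34.0% and 31.8% of its pair in soft tissue sarcoma and at most 2.77% elsewhere, and Zeb2 is 84.2% and 62.2% of its pair in osteosarcoma.

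Within pairs, the share of the second gene is free of the scaling between libraries. Twist2 made up 34.0% and 31.8% of the Twist CPM per kilobase in soft tissue sarcoma, 0.0933% and 0.368% in osteosarcoma and 2.77% and 0% in NG2 cells, the former from 1 count of Twist2. Zeb2 made up 84.2% and 62.2% of the Zeb pair in osteosarcoma, against 23.3% and 36.4% in NG2 cells and 28.9% and 32.2% in soft tissue sarcoma. Snai2 was 41.9% and 56.9% of its pair in osteosarcoma, 29.2% and 32.6% in NG2 cells and 22.2% and 30.1% in soft tissue sarcoma. So for Zeb and Snai the osteosarcomas had the higher share of the second gene in both libraries, and for Twist the soft tissue sarcomas did. Prrx2 had no such order, at 4.1% and 51.4% of its pair in the 2 osteosarcomas. With 2 libraries on each side, the smallest two-sided p of an exact permutation test is 0.333, so these shares are values with no test.

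The partners of the Twist proteins were present in every library. Tcf4, the E-protein with the highest CPM, had 454 and 545 CPM in the NG2 cells, 285 and 229 CPM in the osteosarcomas and 655 and 532 CPM in the soft tissue sarcomas (adjusted p = 0.0566 for osteosarcoma and 0.544 for soft tissue sarcoma, each against NG2 cells). Tcf12 had 57.3 to 149 CPM and Tcf3 15.5 to 39.3 CPM over the 6 libraries, and neither passed in a comparison. The Id proteins, which bind E-proteins but not DNA and so compete with Twist for partners, differed in direction. Id2 fell in both tumour types, from 247 and 403 CPM to 64.2 and 41.4 CPM in the osteosarcomas (log2 fold change -2.62 ± 0.43; adjusted p = 0.0148) and 103 and 63.3 CPM in the soft tissue sarcomas (-1.97 ± 0.42; adjusted p = 0.0294). Id3 rose in osteosarcoma to 1020 and 1204 CPM, from 422 and 445 CPM (1.36 ± 0.36; adjusted p = 0.0449). Id1 fell in soft tissue sarcoma, to 16.4 and 10.6 CPM from 35.3 and 41.6 CPM (-1.505 ± 0.36; adjusted p = 0.0372). Of these 7 genes 1 rose and 1 fell in osteosarcoma, and 2 fell in soft tissue sarcoma, beside 10.5% of all tested genes that rose and 11% that fell in the former and 9.4% that fell in the latter. With so few genes, these shares are near those of all genes in osteosarcoma.

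Of the 9 bHLH relatives of Twist, 4 were tested, and 1 rose and 1 fell in each tumour type. Of all tested genes 10.5% rose and 11% fell in osteosarcoma, and 9.89% rose and 9.4% fell in soft tissue sarcoma. With so few genes, a count of 1 in each direction is near those shares. Scx, the bHLH factor of tendon, rose to 12.7 and 6.51 CPM in the osteosarcomas and 1.98 and 0.809 CPM in the soft tissue sarcomas, from 0.166 and 0.0688 CPM (adjusted p = 0.0133 and 0.0431). Tcf15, a bHLH factor of paraxial mesoderm and endothelium, had 2.44 and 6.67 CPM in the NG2 cells and 0 counts in all 4 tumours, at least 128-fold lower in osteosarcoma and at least 141-fold lower in soft tissue sarcoma, against 3 counts over the group. The other 2 tested, Msc and Tcf23, stayed at or under 3.06 CPM and did not pass. Snai3, the Snail relative of lymphoid cells, fell in both, from 2.99 and 2.25 CPM to 0 counts in osteosarcoma and at most 0.101 CPM in the soft tissue sarcomas (adjusted p = 0.0168 and 0.0364), where B and T cell markers fell as well. Among paired-type relatives of the Prrx genes, Shox2, a limb homeobox factor, rose to 39.6 and 104 CPM in the osteosarcomas and 6.26 and 3.74 CPM in the soft tissue sarcomas, from 0.471 and 0.527 CPM (adjusted p = 0.00552 and 0.0202). Alx4, a craniofacial and limb homeobox factor, had 0 counts in NG2 cells and 22.1 and 6.29 CPM in the osteosarcomas, at least 441.8-fold higher (adjusted p = 0.0108), with 2 counts in the soft tissue sarcomas.

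Of 22 epithelial junction and keratin genes, 19 were tested, 7 fell in osteosarcoma and 5 in soft tissue sarcoma, and none rose. Their median log2 fold change was -5.16 in osteosarcoma (-4.66 with genes at 0 counts set to their bound) and -2.48 in soft tissue sarcoma. Of all tested genes, 11% and 9.4% fell in these comparisons. Among the genes that fell, Ap1m2, Crb3, Marveld2 and Ocln would not have reached the filter on low counts without the NG2 cell libraries. Genes let in by that group alone can only be lower in tumours, so their falls are no support for a direction. The medians of the list include such genes, so they are no support for a direction either. Ovol2, Tcf15 and Snai3 entered in the same way, and Alx4 through the osteosarcoma libraries alone. The summed CPM of the 22 genes was 118 and 80.9 in the NG2 cells, 11.4 and 10.6 in the osteosarcomas and 19.6 and 125 in the soft tissue sarcomas, so that soft tissue sarcoma replicate 2 was above both NG2 cell libraries. Krt18, a keratin of simple epithelia named after its values were seen, made up most of that library's sum, with 107 CPM there against 1.95 CPM in replicate 1, 24.1 and 5.64 CPM in the NG2 cells and 0 counts in the osteosarcomas. Its log2 fold change in soft tissue sarcoma, 1.87, did not pass, nor did that of Cgn, a tight junction gene also named after its values were seen, at 1.23. Cdh1 had 9.81 and 4.95 CPM in the NG2 cells, 1.4 and 0.356 CPM in the osteosarcomas and 1.91 and 1.75 CPM in the soft tissue sarcomas, and did not pass (adjusted p = 0.0592 and 0.147). Epcam, an epithelial adhesion gene, fell from 7.59 and 7.91 CPM to at most 0.285 CPM in all 4 tumours (adjusted p = 0.0114 and 0.0146). Patj, a gene of the polarity complex at tight junctions, fell from 23.5 and 26.0 CPM to 6.37 and 2.45 CPM in the osteosarcomas and 0.57 and 0.606 CPM in the soft tissue sarcomas (adjusted p = 0.0345 and 0.0107). Krt8, the partner of Krt18 in keratin filaments, had 10.9 and 3.46 CPM in the NG2 cells and 1 count over the 2 osteosarcomas (551 times lower, 95% exact interval 98.5 to 21800; adjusted p = 0.00972), but 7.33 and 5.29 CPM in the soft tissue sarcomas. Ap1m2, an epithelial sorting adaptor, had 7.73 and 8.35 CPM in the NG2 cells and 0 counts in tumours, at least 217.5-fold lower in osteosarcoma and at least 240-fold lower in soft tissue sarcoma. Of the 5 tested epithelial regulators, Ovol2, a repressor of Zeb1, fell in both, from 1.02 and 1.7 CPM to 0 counts (adjusted p = 0.04 and 0.041), at least 37.5-fold and 41.4-fold lower. The regulators Ovol1, Esrp2 and Grhl1 were at or under 1.27 CPM in every library and did not pass. These falls started from NG2 cell libraries that also held the B cell, T cell and endothelial RNA given above. Neutrophil markers summed to 46.6 and 2469 CPM over 6 genes in NG2 cell replicates 1 and 2 and at most 179 CPM in a tumour. Of the NG2 cells, only replicate 2 thus lay above all tumours. The part of all those cells was not tested.

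The mesenchymal list, like the epithelial one, was chosen with earlier results of these data known. Of 23 genes, 12 rose in osteosarcoma and 12 in soft tissue sarcoma, and none fell, with medians of 3.39 and 3.43. Of all tested genes 10.5% and 9.89% rose, with medians of 0.04 and 0.00. Cdh11, the cadherin of mesenchyme and osteoblasts, went from 2.63 and 3.16 CPM in the NG2 cells to 440 and 188 CPM in the osteosarcomas and 81.1 and 55.5 CPM in the soft tissue sarcomas, and rose in both (adjusted p = 0.00487 and 0.00934). Cdh2, or N-cadherin, rose from 1.27 and 5.85 CPM to 124 and 87.8 CPM and 27.8 and 26.3 CPM (adjusted p = 0.0132 and 0.0388). Dnm3os, the noncoding RNA that carries the Twist1-induced microRNAs miR-199a and miR-214, rose from 4.74 and 13.4 CPM to 265 and 135 CPM in the osteosarcomas and 146 and 98.4 CPM in the soft tissue sarcomas (adjusted p = 0.0114 and 0.0175). Ddr2, a collagen receptor, rose 10.4-fold in osteosarcoma and 11.5-fold in soft tissue sarcoma (adjusted p = 0.00941 and 0.0110). Fap, a protease of activated fibroblasts, rose from 7.42 and 3.53 CPM to 130 and 191 CPM in the osteosarcomas and 31.5 and 22.5 CPM in the soft tissue sarcomas (adjusted p = 0.00616 and 0.0249). Foxc1 rose in osteosarcoma, to 39.4 and 52.5 CPM, and had 3.79 and 2.26 CPM in the soft tissue sarcomas, against 3.63 and 7.47 CPM in the NG2 cells (adjusted p = 0.017 and 0.257). Vim, the intermediate filament of mesenchyme, rose in soft tissue sarcoma from 678 and 849 CPM to 5044 and 3076 CPM (adjusted p = 0.0181) and had 1170 and 1991 CPM in the osteosarcomas (adjusted p = 0.11). Fn1, the gene of the matrix protein fibronectin, did not pass, with 36.8 and 252 CPM in the NG2 cells and 250 and 3051 CPM in the osteosarcomas (adjusted p = 0.111) and 2134 and 1866 CPM in the soft tissue sarcomas (adjusted p = 0.0999).

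**Figure D4:**
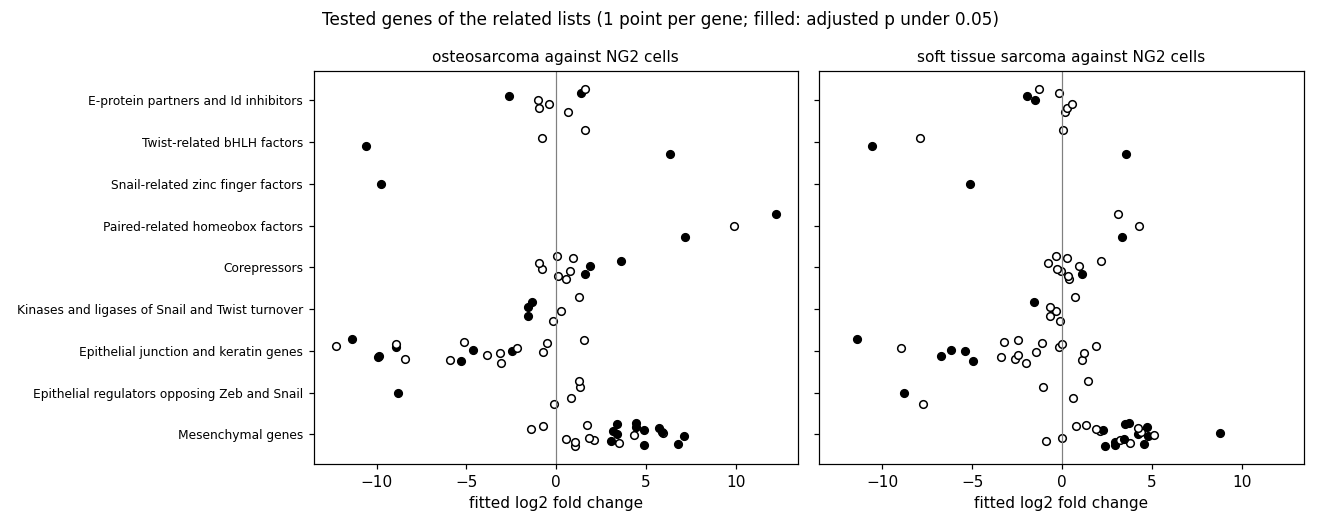
Fitted edgeR log2 fold change against NG2 cells of every tested gene of the 9 related lists, for osteosarcoma (left) and soft tissue sarcoma (right); 1 point is 1 gene, and filled points have an adjusted p under 0.05. Filled points of the epithelial junction list (7 and 5) lie left of 0 and those of the mesenchymal list (12 and 12) right of it; points of genes with 0 counts in a group are set by the fit and not by a measured ratio.

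Corepressors through which Snai and Zeb proteins act were present in all libraries. Ctbp1, a Zeb corepressor, rose in both tumour types, from 25.1 and 19.7 CPM to 71.8 and 66.0 CPM in the osteosarcomas and 46.6 and 51.2 CPM in the soft tissue sarcomas (adjusted p = 0.0161 and 0.0394). The histone deacetylase Hdac2 and the Snai1 partner Ajuba rose in osteosarcoma (log2 fold change 1.86 ± 0.42 and 3.63 ± 0.87; adjusted p = 0.0299 and 0.0363). Of the 10 corepressors, 3 thus rose in osteosarcoma and 1 in soft tissue sarcoma, beside 10.5% and 9.89% of all tested genes. The count in soft tissue sarcoma is near that share. The other 7 of 10 corepressors did not pass in either, among them the scaffold Sin3a, at 54.9 and 68.8 CPM in the NG2 cells, 28.5 and 35.8 CPM in the osteosarcomas and 38.3 and 34.4 CPM in the soft tissue sarcomas (adjusted p = 0.0644 and 0.108). Of 6 genes for turnover of the Snai and Twist proteins, Fbxl5, Fbxo11 and Btrc, which encode subunits of ubiquitin ligases, fell in osteosarcoma, and Fbxo11 also in soft tissue sarcoma. Of all tested genes 11% and 9.4% fell, and with so few genes the count of 1 in soft tissue sarcoma is near that share. Fbxl5 went from 154 and 161 CPM to 54.4 and 53.1 CPM in the osteosarcomas (adjusted p = 0.0118) and did not pass in soft tissue sarcoma (adjusted p = 0.0824). Btrc went from 61.0 and 46.9 CPM to 22.9 and 13.7 CPM in the osteosarcomas (adjusted p = 0.0340). Fbxo45 had 6.07 and 6.19 CPM in the NG2 cells and 16.1 and 13.9 CPM in the osteosarcomas and did not pass. Fbxo11 had 119 and 92.3 CPM in the NG2 cells, 41.5 and 41.3 CPM in the osteosarcomas and 35.0 and 36.5 CPM in the soft tissue sarcomas (adjusted p = 0.0218 and 0.0172).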

How the data were processed

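The authors deposited raw read counts per Ensembl gene, 1 table per library, as whole numbers. The submitters' processing notes name STAR, HTSeq, DESeq2, FastQC, cutadapt and Trim Galore and the builds GRCm38 and mm10, with no versions or roles. Per the labels' protocols, RNA was copied from an oligo(dT) primer and amplified by PCR, and no molecular identifiers were named, so intervals cover counting error only. Reads on no gene (19.5% to 33.2%) or on several (2.57% to 3.22%) were left out. Of 38561 IDs, 36639 matched GENCODE M21.

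Counts were tested with edgeR 4.0.16 in R 4.3.3 (TMM scaling; filterByExpr by group, minimum count 10 and total 15; quasi-likelihood F tests; 1 model of 6 libraries and 3 groups, no covariates, 3 residual degrees of freedom). SE is the log2 fold change over the root of F. CPM use TMM library sizes. P-values reflect the spread of 2 libraries per group, and separate animals were not stated. Strand setting and annotation release were not given in the sources used here. The named genes are all 8 factors, and, from related lists, up to 4 with the smallest p per list plus Cdh1, Epcam, Cdh2, Vim, Fn1, Tcf3, Tcf4, Tcf12, Id1, Id2, Id3, Snai3, Scx and Dnm3os. A gene that the rule named is not reported here. The members and lists were chosen with earlier results of these data known. Fits were tested on simulated counts. Alternatives were DESeq2 1.42.0, RLE scaling, no filter, no immune receptor or mitochondrial genes, 2 groups only, a replicate block, and each library left out.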

Additional observations from a re-analysis of the deposited data

How the results depend on the processing

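Over 12 alternatives, no factor changed direction in a comparison in which the main test called it. The number of factors called in osteosarcoma was 4, and 2 to 4 with a library left out. In soft tissue sarcoma it was 4, and 0 to 5 with a library left out; both values of 0 came without a soft tissue sarcoma library, when the lone sample was assumed to vary like the other groups and edgeR called no gene at all. Between the tumour types it was 0, but 1 with DESeq2, 1 with no filter and 0 to 2 with a library left out. Over the 9 related lists, 33, 26 and 0 of 78 tested genes were called in the 3 comparisons (21.5%, 19.3% and 0.142% of all genes), with 11 to 33, 0 to 34 and 0 to 6 when a library was left out, as the calls over all genes went from 4086, 3671 and 27 to 1278 to 3429, 0 to 4694 and 0 to 315; in the last comparison 17 were called with DESeq2 and 6 with no filter. The near-zero difference of Zeb1 between soft tissue sarcoma and NG2 cells changed sign with DESeq2 (-0.031), RLE scaling (-0.036) and without immunoglobulin, T cell receptor and mitochondrial genes (-0.021), and lay between -0.094 and 0.14 with a library left out. That of Zeb2 changed sign with no filter (0.0028), in the 2 groups alone (0.0034) and with a library left out (-0.44 to 0.62). Between the tumour types, Twist1 lay between -0.42 and 0.27 and Prrx2 between -0.61 and 2.97 with a library left out, both changing sign without osteosarcoma replicate 1. None of these differences passed the threshold, and the cause of each change was not tested. Replicate numbers were shared by the groups, but samples with the same number did not deviate together (r of 0.049, -0.0028 and -0.086 across genes, which are not independent replicates), so the numbers were not taken as pairs. With a replicate block 3, 3 and 0 factors and 27, 19 and 0 related genes were called, Snai1 was lost in both comparisons with NG2 cells, and the difference of Zeb2 between soft tissue sarcoma and NG2 cells was 0.05. Depth limited Twist2 in NG2 cells and osteosarcoma, where 3 counts are 0.0569 to 0.107 CPM.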

Other observations

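Genes whose profile over the 6 libraries was most like that of a factor were listed by Pearson's r of log2 CPM, among protein-coding genes with at least 20 CPM in 1 library. The libraries fall into 3 groups, the libraries of a group share the number taken as a lane, and r is given as a description with no test. Nearest to Twist1 was Trappc1 (r = 0.998), and 563 genes had r above 0.95. Nearest to Twist2 were Tbca and Adam9 (r = 0.996 each), with 99 genes above 0.95. Adam9, a membrane protease, had 33.7 and 27.0 CPM in the NG2 cells, 30.3 and 37.9 CPM in the osteosarcomas and 114 and 105 CPM in the soft tissue sarcomas. For Prrx1 the nearest was Tpgs2 (r = 0.999), with 415 genes above 0.95, and for Snai1 it was Apbb1 (r = 0.996), with 182. Zeb1 and Zeb2 had the fewest such genes, 39 and 32. Nearest to Zeb1 were Tcf20 (r = 0.996) and Pdlim1 (r = 0.994), the latter at 99.6 and 110 CPM in the NG2 cells, 14.5 and 43.6 CPM in the osteosarcomas and 124 and 112 CPM in the soft tissue sarcomas. Nearest to Zeb2 was Phka2 (r = 0.994). Nearest to Prrx2 was Timm8b (r = 0.991), at 47.1 CPM in the tibial and 73.6 CPM in the spinal osteosarcoma, with 100 genes above 0.95, and nearest to Snai2 was Pwp1 (r = 0.994), with 206.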
